A study of Mus musculus with 8 samples.

Results

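The 10 genes described here, Atf4, Ddit3, Trib3, Asns, Chac1, Sesn2, Hspa5, Xbp1, Herpud1 and Fgf21, are standard readouts of the integrated stress response and of the unfolded protein response. They were taken by symbol from a table of 48440 gene entries, and all 10 were found. Purified cardiomyocytes, the contractile cells of the heart, came from C57BL6/J mouse pups on postnatal day 2. The 4 male and 4 female libraries are 1 of each sex from each of 4 litters, with no treatment or genetic change named for any of them. Male and female are the compared groups, and litter is a second grouping with 2 libraries each. The pups of a litter share parents, and whatever was done litter by litter, such as handling or dissociation, cannot be told apart from litter itself. A library is 1 heart. P-values between litters measure the spread between the 2 hearts of a litter, pooled over litters, after the mean sex difference is removed.

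In the integrated stress response, kinases that sense amino acid shortage, misfolded protein, haem shortage or double-stranded RNA phosphorylate the initiation factor eIF2. General translation falls while the mRNA of the transcription factor ATF4 is translated more, and ATF4 raises genes for amino acid supply, the factor CHOP (Ddit3) and feedback inhibitors. In the unfolded protein response, the sensors PERK, IRE1 and ATF6 in the endoplasmic reticulum (ER) membrane respond to misfolded protein, IRE1 by splicing Xbp1 mRNA and PERK by phosphorylating eIF2. XBP1 and ATF6 raise chaperones and the machinery that degrades misfolded ER proteins, a load known to matter in secretory cells and in the stressed heart. Counts per gene show neither translation of Atf4 nor splicing of Xbp1.

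Library totals ran from 14226342 counts, in the female of litter 3, to 24910243. Values are CPM, each count as a share of its library set to 1 common sum, with TMM, a method that corrects for differences in composition. As a check of the cell type, 12 of 12 cardiomyocyte markers had enough counts to test and summed to 78800 to 102000 CPM, while markers of other cells summed to far less: mural cells 897 to 1510 CPM, erythroid cells 98.6 to 532 CPM, fibroblasts 32.4 to 243 CPM, endothelium 14.8 to 138 CPM and neutrophils at most 0.208 CPM. The mural sum was carried by Acta2 and Abcc9, at 751 and 460 CPM in mean. Rgs5, Myh11, Pdgfrb and Kcnj8 of that list had means from 0.718 to 4.94 CPM. Litter 3 stood apart in several marker lists, and those values are given with the results of that litter. Of the 10 genes, 7 passed the filter on low counts and were tested among 13771 genes. Trib3, Chac1 and Fgf21 did not pass it.

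Per kilobase of exon, the levels of the 10 genes spanned several orders of magnitude, with the ER chaperone Hspa5 at the top and the hormone gene Fgf21 at the bottom. Hspa5 had a mean of 96.1 CPM per kilobase over 8 libraries that ran from 81.1 to 110, followed by Atf4 at 48.8 ± 2.71 (SD, n = 8) and Herpud1 at 38.7 ± 7.0. Xbp1 had 12.6 ± 2.09 CPM per kilobase and Ddit3 9.97 ± 1.99. Levels of Sesn2, at 2.43 ± 0.497, and of Asns, at 0.971 ± 0.361, were lower still. Trib3 had 0.207 ± 0.0742 CPM per kilobase and Chac1 0.0856 ± 0.0497. Neighbours whose libraries overlapped in level were Atf4 and Herpud1, Xbp1 and Ddit3, Sesn2 and Asns, Trib3 and Chac1, and Chac1 and Fgf21. All libraries of Hspa5 lay above all of Atf4, all of Herpud1 above all of Xbp1, all of Ddit3 above all of Sesn2, and all of Asns above all of Trib3. The order was the same when the longest transcript gave the length.

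**Figure D1:**
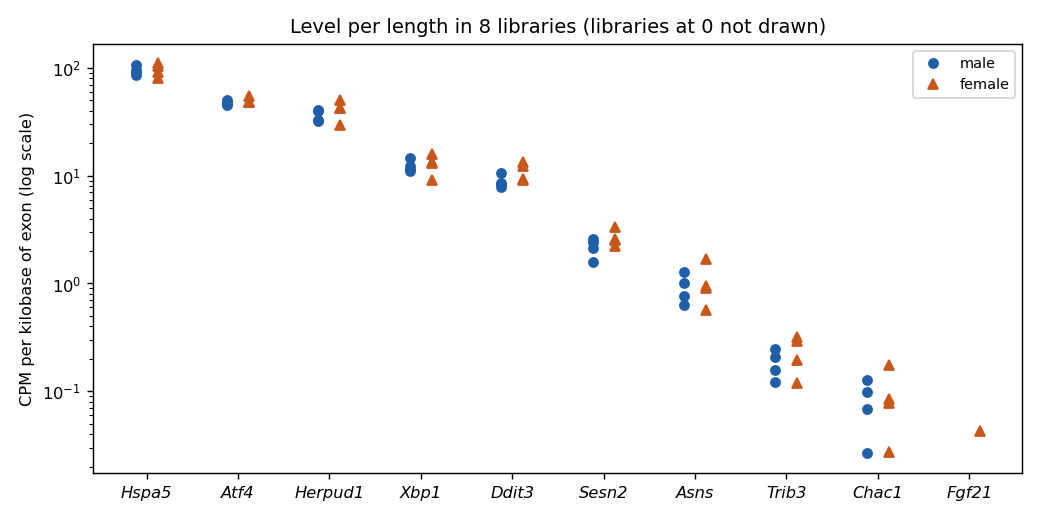
Level of each of the 10 genes in CPM per kilobase of exon on a log axis, 1 point per library, circles for the 4 males and triangles for the 4 females. Hspa5, Atf4 and Herpud1 lie highest, Trib3 and Chac1 lie below 1, and Fgf21 has 1 point because 7 libraries had no count.

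Atf4, the factor through which the integrated stress response acts on transcription, had nearly the same mRNA level in every heart. In litters 1 to 4, the males had 107, 118, 113 and 112 CPM and the females 115, 114, 129 and 113 CPM. The highest library was 1.2 times the lowest, the smallest such ratio among the 10 genes, and only the female of litter 3 lay above 118 CPM. Sexes overlapped, with means of 112 ± 4.28 CPM for males and 118 ± 7.53 CPM for females (SD, n = 4). Male against female, log2 fold change was -0.07 (SE 0.07, edgeR adjusted p = 1), and the range over litters was 0.12 on the log2 scale (adjusted p = 0.535). Atf4 lies at chr15:80255184-80257541 on the plus strand (GRCm38), and none of its exon bases overlap another annotated gene.

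Ddit3 encodes CHOP, a factor that ATF4 raises and that promotes cell death when stress lasts. Males of litters 1 to 4 had 14.4, 13.5, 14.7 and 18.3 CPM, and females had 16.0, 15.6, 22.9 and 21.2 CPM. The male was the lower of the pair in all 4 litters, although the sexes overlapped as groups. The difference, -0.32 on the log2 scale (SE 0.15), was not past the threshold (edgeR adjusted p = 1), nor with litter as a block (-0.30, SE 0.09, adjusted p = 0.295). Between litters Ddit3 differed by 0.44 on the log2 scale from the lowest to the highest (adjusted p = 0.0439), with litters 3 and 4 above litters 1 and 2 in mean. That litter call was lost under most alternatives, among them DESeq2 (0.122), thinning all libraries to the smallest total (0.117) and leaving out the sex term (0.18). It was also lost without litter 1, 2 or 4 (0.0577, 0.0851 and 0.134) and without any of 6 single libraries, both of litters 1, 2 and 4, with the highest value, 0.131, without the male of litter 4. A second gene ID named Ddit3 on the same strand covers 6.13% of the exon bases of Ddit3, and 4.73% lie under Mars or Gm4189 of the other strand, and whether counting used strand is not given in the sources used here.

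Trib3 and Chac1, which ATF4 and CHOP are known to raise strongly under stress, were barely present. Trib3, a pseudokinase that restrains the response, had 13, 8, 6 and 8 counts in the males of litters 1 to 4 and 10, 15, 9 and 6 in the females. Those 75 counts over 8 libraries amount to 0.429 CPM, with an exact 95% Poisson interval of 0.337 to 0.538 that covers counting error only. Chac1, an enzyme that degrades glutathione, had 4, 5, 1 and 2 counts in males and 7, 1, 2 and 3 in females. Its 25 counts amount to 0.143 CPM (interval 0.0925 to 0.211). Neither gene had a litter or a sex that stood clear of the rest. With no filter on low counts, edgeR's adjusted p in the litter test was 0.929 for both.

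Fgf21, a hormone that stressed liver, muscle and heart are known to release, had 1 count, in the female of litter 1, and 0 in the other 7 libraries. Over all libraries a count of 0 would allow a level of up to 0.0172 CPM, and the 1 count gives 0.00572 CPM (exact Poisson interval 0.000145 to 0.0319). A difference between litters or sexes in Fgf21 was not detectable at this depth.

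**Figure D2:**
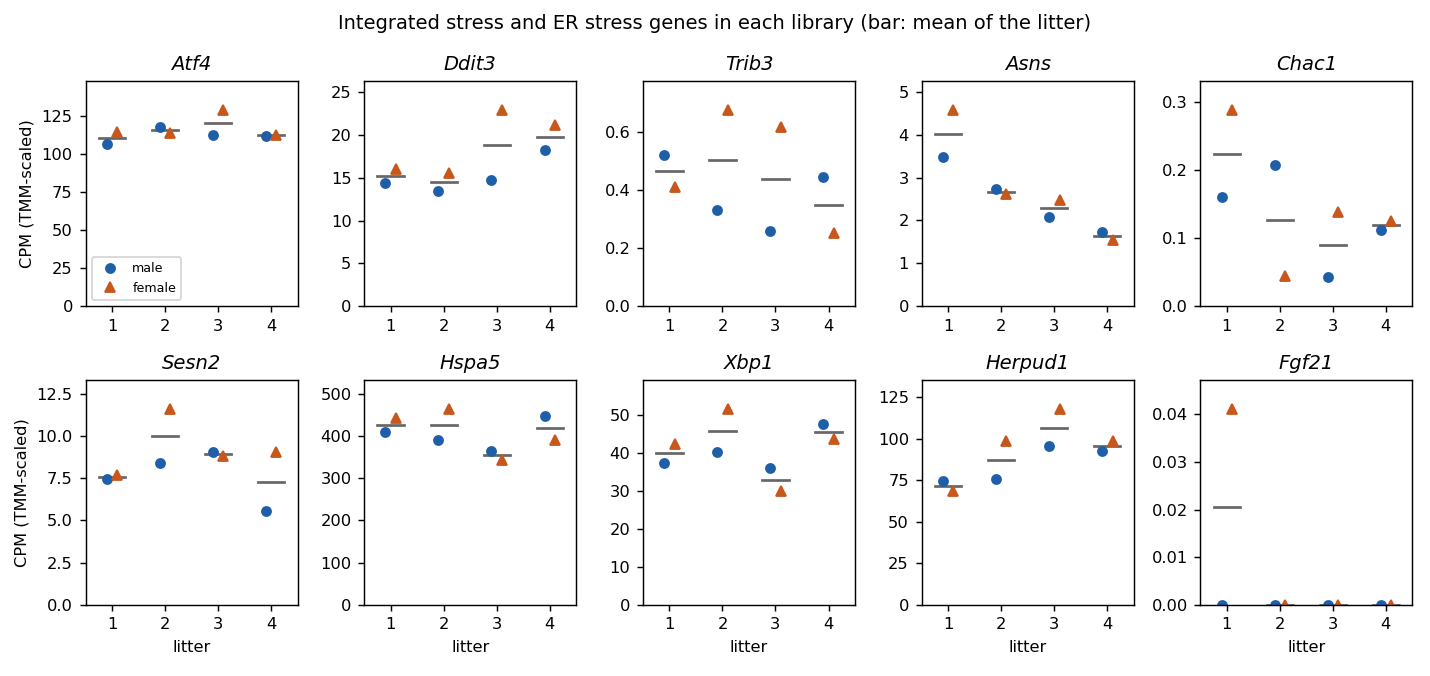
CPM of the 10 genes in each library by litter, circles for males and triangles for females, with a bar at the mean of the 2 libraries and axes from 0. Atf4 stays between 107 and 129 CPM, Asns is highest in litter 1 and lowest in litter 4, Hspa5 and Xbp1 are lowest in litter 3, and Herpud1 is lowest in litter 1.

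Asns encodes asparagine synthetase, a classic target of ATF4 in amino acid shortage, and it varied most between litters among the 7 tested genes. The males of litters 1 to 4 had 3.49, 2.74, 2.08 and 1.73 CPM, and the females 4.57, 2.61, 2.48 and 1.55 CPM. Both libraries of litter 1 lay above the other 6 and both of litter 4 lay below them. The highest litter stood 2.46-fold above the lowest, a range of 1.30 on the log2 scale (edgeR adjusted p = 0.00992, but 0.105 without the female of litter 1, 0.17 without litter 1 and 0.0501 without litter 4). Litter 1 was higher than the mean of the other 3 litters by 0.90 (SE 0.19, adjusted p = 0.00833), and litter 4 was lower (log2 -0.83, SE 0.22, adjusted p = 0.0351). The litter 1 call was lost without its male (0.0583) or its female (0.249). The litter 4 call was lost under DESeq2 (0.0982), under thinning (0.106), without litter 1 (0.162), and without any of 6 single libraries, with adjusted p from 0.0511 to 0.287. Males and females overlapped, at 2.51 ± 0.777 and 2.80 ± 1.27 CPM (SD, n = 4), and differed by -0.15 on the log2 scale (SE 0.34, adjusted p = 1).

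The tested genes most like Asns across the 8 libraries were 9630013D21Rik, Fmn1, Itga1, Pycard and Slc6a17. Likeness was the root mean square difference of mean-centred log2 CPM, which was 0.17 for 9630013D21Rik, 0.18 for Fmn1 and 0.20 for each of the others. Itga1, an integrin subunit, fell from 45.6 CPM in litter 1 to 24.8 CPM in litter 4 in mean. Pycard, an adaptor of the inflammasome, had 21 CPM in litter 1 and 12 CPM in litter 4. With a prior count of 0.5 in place of 2, 4 of the 5 were the same.

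Sesn2, a sestrin that restrains the growth kinase mTORC1 and is raised by ATF4, had 7.47, 8.40, 9.07 and 5.53 CPM in the males of litters 1 to 4. The females had 7.69, 11.6, 8.81 and 9.03 CPM. The female of litter 2 was highest and the male of litter 4 lowest, and no litter lay outside the others. Its range over litters was 0.45 on the log2 scale (edgeR adjusted p = 0.163), and male minus female was -0.28 (SE 0.18, adjusted p = 1).

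Hspa5, the ER chaperone BiP, which also holds the 3 ER stress sensors inactive, was the most abundant of the 10 genes and was lowest in litter 3. The males had 409, 390, 365 and 448 CPM in litters 1 to 4, and the females 442, 464, 343 and 390 CPM. Both libraries of litter 3 lay below the other 6. Against the other litters, litter 3 stood at -0.26 on the log2 scale (SE 0.08, edgeR adjusted p = 0.0308). It was -0.21 when libraries were scaled by total alone (adjusted p = 0.0579), and the call was also lost without the female of litter 1 (0.0695) or 2 (0.0539), either library of litter 3 (male 0.0645, female 0.286), or litter 1 (0.059). The test of all litters together did not pass (0.109).

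Xbp1, the factor whose mRNA IRE1 splices, moved in the same direction in litter 3. The males had 37.3, 40.2, 36.0 and 47.5 CPM in litters 1 to 4, and the females 42.4, 51.5, 29.9 and 43.5 CPM. Both litter 3 libraries lay below the other 6, the male by a small margin. On the log2 scale, litter 3 stood at -0.39 (SE 0.11, edgeR adjusted p = 0.0176). It was -0.21 without the female of litter 3, the library with the fewest counts, and then no longer past the threshold (0.305). The test of all litters together gave an adjusted p of 0.0424, lost without any of 3 single libraries (males of litters 1 and 4, 0.0568 and 0.0695, and the female of litter 3, 0.231), without litter 3 (0.309), with scaling by total alone (0.06) and without the sex term (0.0588).

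Herpud1, an ER membrane protein of the degradation machinery that both ATF4 and the ER stress factors are known to raise, went the other way from Hspa5 and Xbp1 in litter 3. The males had 74.4, 76.1, 95.6 and 93.0 CPM in litters 1 to 4, and the females 68.7, 98.9, 118 and 98.5 CPM. Both libraries of litter 1 lay below the other 6, while litter 3 overlapped with litters 2 and 4. Litter 1 stood at -0.42 on the log2 scale (SE 0.09, edgeR adjusted p = 0.00945), and litter 3 at 0.33 (SE 0.08, adjusted p = 0.0124). The litter 1 call was lost without the female of litter 1 (-0.24, adjusted p = 0.316), and the litter 3 call without the female of litter 3 (0.24, adjusted p = 0.205) or without litter 1 (0.22, 0.0694). The test of all litters together gave 0.00942, with 0.0692 without the female of litter 1 and 0.089 without litter 1.

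Across the 7 tested genes, 4 passed the litter test, Asns, Herpud1, Xbp1 and Ddit3, against 32.1% of all tested genes. In litter 1, Asns was higher, against 7.86% of all tested genes, and Herpud1 was lower, against 5.41%. In litter 2, 0 of the 7 passed in edgeR or in DESeq2, against 3.3% of all tested genes called higher and 0.879% called lower. At an unadjusted p under 0.05 the counts there were 3 of the 7 and 17.9% of all tested genes. In litter 3, Herpud1 was higher, against 13.6%, and Hspa5 and Xbp1 were lower, against 14.8%, and 0 of the 7 passed without the female of litter 3. In litter 4, Asns was lower, against 5.8%, and none was higher, against 4.71%. Both libraries of at least 1 litter lay outside the other 6 for 4 of the 7 genes, against 59.1% of all tested genes. That share is close to the background. By sex 0 of the 7 passed in edgeR or in DESeq2, against 0.0436% of all tested genes. At an unadjusted p under 0.05 they were 0 of the 7, against 2.22% of all tested genes, and 2 of the 7 with litter as a block, against 11.6%.

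With total scaling alone, all tested genes in litter 3 split into 2419 higher and 1698 lower, against 1871 and 2032 with TMM. In litter 4 they split into 262 and 1501, against 648 and 799. Directions of the called members held under both scalings.

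Sequences from 5 member promoters are shown because these genes differ in the elements through which ATF4 and the ER stress factors are known to act, and in how they behaved between litters. They are read from RefSeq promoters on GRCm38.p6, 5′ to 3′ on the strand of the gene. Capitals mark TGATGNAA, the core of the C/EBP-ATF response element, or TTGCATCA, the form of its other strand in which N is C, and the ER stress response elements. The element ERSE was searched as CCAAT and CCACG 9 bases apart and ERSE-II as ATTGG and CCACG 1 base apart, on both strands of the 250 bases before the start. The windows of Asns and Hspa5 are short because those bases lie in an annotated exon. Their positions are chr6:7693215-7693243, minus strand, for Asns, chr2:119351034-119351228, plus strand, for Chac1, and chr7:45615491-45615644, minus strand, for Fgf21. Hspa5 is at chr2:34772020-34772048 and Herpud1 at chr8:94386302-94386428, both on the plus strand.
Asns: tcccagccacaTGATGAAActtcccgcac
Chac1: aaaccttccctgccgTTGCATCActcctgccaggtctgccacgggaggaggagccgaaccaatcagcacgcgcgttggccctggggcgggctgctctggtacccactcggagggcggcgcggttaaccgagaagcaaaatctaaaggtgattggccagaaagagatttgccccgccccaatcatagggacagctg
Fgf21: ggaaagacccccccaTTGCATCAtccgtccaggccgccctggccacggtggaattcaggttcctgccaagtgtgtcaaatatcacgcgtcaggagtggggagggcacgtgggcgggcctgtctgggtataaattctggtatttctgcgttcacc
Hspa5: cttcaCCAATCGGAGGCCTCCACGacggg
Herpud1: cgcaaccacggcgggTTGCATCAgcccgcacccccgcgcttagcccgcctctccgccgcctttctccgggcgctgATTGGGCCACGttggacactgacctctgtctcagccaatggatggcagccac

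Of the 10 genes, 4 held TGATGNAA on either strand, namely Asns, Chac1, Fgf21 and Herpud1, against 3.45% of 32851 promoters. In Chac1, Fgf21 and Herpud1 the match was TTGCATCA, which 0.791% of promoters hold. These 4 genes ran from Herpud1, at 90.4 CPM in mean, to Fgf21, with 1 count. ERSE stood in Hspa5 and in 0.113% of promoters, and ERSE-II in Herpud1 and in 0.0304%, which is 10 promoters. Herpud1 was the only one of the 10 with both a C/EBP-ATF core and an ER stress element. The promoters of Atf4, Ddit3, Trib3, Sesn2 and Xbp1 held none of these letters in that window, and the XBP1 element core TGACGTGG, in 0.563% of promoters, was in none of the 10. It ends in CGTGG, the other strand of CCACG, which 28.3% of promoters and 7 of the 10 genes hold.

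Other genes of the 2 pathways were read from 8 lists. Of 20 ER chaperones and folding enzymes, the genes that work beside Hspa5, 9 fell in litter 3, against 14.8% of all tested genes, 1 rose (Dnajc10, 0.21, adjusted p = 0.0452), and 16 of 20 had a negative log2 fold change. The median was -0.15, against 0.00 over all tested genes. Sdf2l1, which keeps BiP clients soluble with a partner, had -0.85 (SE 0.29, edgeR adjusted p = 0.0444). Its mean was 1.89 CPM, and the test of all litters together did not pass (0.103). Manf, a secreted BiP partner, had -0.73 (SE 0.12, 0.00126), and Creld2 had -0.56 (SE 0.11, 0.00301). Sdf2l1 stood at -0.48 (0.408) without the female of litter 3 and at -1.43 (0.041) without the male. The other 6 that fell were Hyou1, Calr, Pdia6, Hsp90b1, Pdia4 and Dnajb11, with log2 fold changes from -0.53 to -0.27. Without the female of litter 3, Hyou1 stood at -0.19 (0.258) and Calr at -0.26 (0.237), and without the male Hyou1 stood at -0.94. The abundant Canx (-0.13), P4hb (-0.16) and Pdia3 (-0.12) did not pass. Without the female of litter 3, 2 of 20 were lower and 0 higher, with a median of -0.16, and without the male 9 were lower and 0 higher. Over all tested genes the same steps took the litter 3 calls from 3903 to 1704 and to 2234. In litter 4, 5 of the 20 were higher, against 4.71% of all tested genes, and 0 lower, but 2 were higher with scaling by total alone and 1 when the male of litter 1 or 4 was left out. With no filter on low counts, 8 of the 20 were higher in litter 4, against 871 of 24853 genes. In that litter 6 of 8 fibroblast markers, with a median of 0.62, and 7 of 12 cardiomyocyte markers, with 2 lower and a median of 0.22, were also higher. In litter 4, mitochondrial genes took 18.5% of male and 15.2% of female counts, and 13.4% to 15% in the other 6 libraries. The part of these in the litter 4 values was not tested.

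Manf shows the pattern by library. Its males had 29.8, 32.2, 23.7 and 39.4 CPM in litters 1 to 4, and its females 32.3, 38.0, 17.0 and 33.0 CPM. Both litter 3 libraries were below the other 6, the female furthest. Hsp90b1, the ER form of HSP90, had 315, 303, 249 and 328 CPM in the 4 males and 301, 275, 215 and 268 CPM in the 4 females, and litter 3 again lay below the rest. Summed over the 20 genes, litter 3 had 1420 to 1590 CPM and the other 6 libraries 1700 to 1990 CPM.

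**Figure D3:**
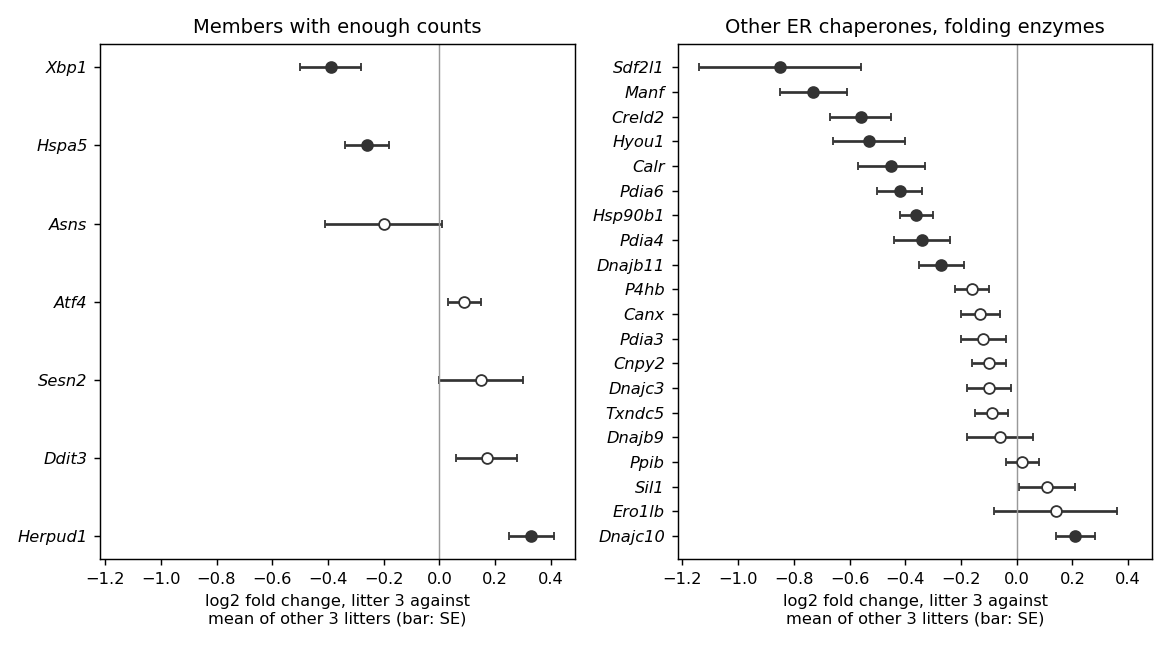
Log2 fold change of litter 3 against the mean of the other 3 litters, with standard errors as bars, for the 7 tested members (left) and 20 other ER chaperones and folding enzymes (right); filled points have an edgeR adjusted p under 0.05. Hspa5, Xbp1 and 9 chaperones lie left of 0 and filled, while Herpud1 and Dnajc10 lie right of 0.

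Promoters of 2 of these chaperones are shown beside that of Hspa5 because both genes fell in litter 3 and carry the same element. Hsp90b1 holds ERSE on either strand, once each, and Calr, a calcium-binding chaperone, holds it on the opposite strand. They lie at chr10:86705510-86705671 and chr8:84846935-84847108, both on the minus strand, and capitals mark ERSE.
Hsp90b1: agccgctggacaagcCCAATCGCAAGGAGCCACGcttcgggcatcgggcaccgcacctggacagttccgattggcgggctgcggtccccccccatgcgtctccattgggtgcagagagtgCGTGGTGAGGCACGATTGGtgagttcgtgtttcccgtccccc
Calr: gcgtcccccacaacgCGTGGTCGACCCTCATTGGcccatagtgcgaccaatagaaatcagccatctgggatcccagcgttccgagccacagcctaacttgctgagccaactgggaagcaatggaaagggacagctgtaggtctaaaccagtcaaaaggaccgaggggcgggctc

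Of 16 chaperones with a promoter in the table, 6 held ERSE: Hsp90b1, Calr, Canx, Pdia6, Dnajc3 and Creld2. Of these, Canx (-0.13) and Dnajc3 (-0.10, edgeR adjusted p = 0.375) did not pass in litter 3. Syvn1, a degradation gene that also holds ERSE, did not pass either (-0.10, 0.455). Sdf2l1, Manf, Hyou1, Pdia4 and Dnajb11 fell in litter 3 but were not among the 6, and not all 20 chaperones had a promoter entry. Grouping genes by these elements was chosen after the values were seen. Among 16 tested genes with ERSE, 6 were lower in litter 3 and 1 was higher, against 14.8% and 13.6% of all tested genes, with a median log2 fold change of -0.18. Of those 6, Hspa5, Creld2, Calr, Pdia6 and Hsp90b1 were already counted above and Hnrnpa3 was not, so the count is no separate evidence. Without the female of litter 3, 2 were lower and 0 higher, with a median of -0.14, and without the male 5 and 0. Of 6 tested genes with ERSE-II, Herpud1, Lgalsl and Lrif1 were higher and 0 were lower, with a median of 0.18, and none of the 6 passed without the female of litter 3. The 221 tested genes with TGATGNAA had 38 higher and 35 lower, with a median of -0.01.

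The UPR sensors and transducers went both ways in litter 3, with 3 of 11 tested genes higher and 3 lower, against 13.6% and 14.8% of all tested genes. Atf6, the chaperone-inducing sensor, rose by 0.34 (SE 0.07, edgeR adjusted p = 0.00459), while its relative Atf6b had -0.40 (SE 0.10, 0.00969). Traf2, an adaptor of IRE1, had -0.48 (0.0183) and Bak1, a pore-forming death protein that binds IRE1, had -0.40 (0.00181), with 10.7% of the windows of Bak1 shared with another gene. Ern1, which encodes IRE1, had 0.27 (0.0493), just past the threshold. Mbtps1, Creb3 and Creb3l2 did not pass. Without the female of litter 3, 0 of the 11 were higher and Bak1 alone was lower, with Atf6 at 0.21 (0.151). In the list of ER-associated degradation and translocon genes, where Herpud1 works, 2 of 19 rose and 1 fell, both below the shares of all tested genes (13.6% and 14.8%), and 1 rose and 0 fell without the male or without the female of litter 3. Edem2, a mannosidase-like protein, had 0.42 (0.00407) and Os9, a lectin, had 0.28 (0.0144), while Ssr1 had -0.23 (0.0484) and the abundant Ubxn4 and Sec62 did not pass. Edem2 and Os9 were also lower in litter 1, as Herpud1 was, with -0.40 (0.0136) and -0.29 (0.0265). They were the 2 of 19 lower there, against 5.41% of all tested genes, and neither passed without the male or without the female of litter 1, where Os9 stood at -0.41 and -0.17.

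Of 10 kinases of the integrated stress response and eIF2 factors, 1 rose and 1 fell in litter 3, below the shares of all tested genes (13.6% and 14.8%). Eif2ak4, the amino acid sensor GCN2, rose (0.30, SE 0.07, edgeR adjusted p = 0.0116) and Nck1 fell (-0.26, 0.0299), and 0 of 10 passed without the male of litter 3. Eif2ak3, which encodes PERK, had -0.09 (0.611), and Eif2ak1, Eif2s1 and Eif2b5 had -0.11, -0.12 and -0.07 without passing. In a list of ATF and C/EBP factors, 3 of 7 tested genes rose and 1 fell in litter 3, against 13.6% and 14.8% of all tested genes. Of these, Atf2 was at the threshold (0.20, adjusted p = 0.0465), and 2 of 7 rose under DESeq2, thinning or no sex term. Atf3, a factor that many stresses raise, had 35.8 and 40.8 CPM in the male and female of litter 3 and 9.71 to 20.7 CPM in the other 6 libraries, 1.51 higher on the log2 scale (SE 0.13, 9.11e-06). Crebrf rose by 0.73 (0.000912), or by 0.40 (0.0278) without the female of litter 3, and Atf5, a close relative of ATF4, had -0.58 (0.000364). Cebpb, Cebpg and Jdp2 did not pass.

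Atf3 also belongs to a list of 14 immediate-early and dissociation genes, of which 11 were higher and 2 lower in litter 3. That list summed to 1410 to 1530 CPM in the libraries of litter 3 and to 399 to 700 CPM in the others. Its counts, and those of the marker lists below, stand against 13.6% of all tested genes higher and 14.8% lower in litter 3. Fibroblast markers summed to 32.4 to 51.8 CPM in litter 3 against 108 to 243 CPM elsewhere, with 6 of 8 lower. Mural cell markers summed to 897 to 920 against 1330 to 1510 CPM, with 4 of 7 lower. Those mural sums were carried by Acta2, which ran from 343 to 1040 CPM over all libraries, and Abcc9, from 391 to 510 CPM. Endothelial markers, 5 of 8 lower, summed to 17.4 to 19.0 CPM against 14.8 to 138 CPM, so litter 3 lay within the range of the others. In litter 2, 8 of 8 endothelial markers were higher, against 3.3% of all tested genes, with a median of 2.19. Litter 2 is part of the mean that litter 3 is set against. Cardiomyocyte markers summed to 78800 to 81700 CPM in litter 3 and 90500 to 102000 CPM elsewhere, with 5 of 12 lower and 1 higher. A list of 5 atrial markers summed to 1300 to 1600 CPM in litter 3 and 205 to 804 CPM elsewhere, a sum carried by Nppa, which ran from 178 to 1510 CPM, while the list's median was -0.18, 1 gene was called higher and 3 of 5 were negative. Erythroid markers summed to 185 to 532 CPM against 98.6 to 247 CPM, with 2 of 6 tested genes higher and a median of 0.94. The part of these in the litter 3 values of Hspa5, Xbp1, Herpud1 and the chaperones was not tested, and fewer cells of a type cannot be told apart from less RNA per cell.

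Genes of amino acid transport and synthesis, the group to which Asns belongs, did not move as one. Of 18 tested, 9 passed the litter test, against 32.1% of all tested genes. In litter 1, 3 rose and 1 fell, against 7.86% and 5.41%, and in litter 3, 4 rose and 4 fell, against 13.6% and 14.8%. In litter 1, 7 of 14 immediate-early and dissociation genes were lower and 1 higher, with a median of -0.37, and 3 of 8 fibroblast markers were higher and 0 lower, with a median of 0.36. Their part in the litter 1 values, those of Asns and Herpud1 included, was not tested. Mthfd2, the mitochondrial folate enzyme, had 5.70 and 5.31 CPM in the male and female of litter 1, 1.43 and 1.79 CPM in litter 3, and 2.41 to 3.87 CPM in litters 2 and 4. Litter 1 lay above and litter 3 below all other libraries, with log2 fold changes of 1.18 (SE 0.19, edgeR adjusted p = 0.0022) and -1.21 (SE 0.24, 0.00341). Slc1a4, a neutral amino acid transporter at 1.06 CPM in mean, had 1.03 in litter 1 (0.0219) and -1.63 in litter 3 (0.00496, and 0.11 without the male of litter 3). Psat1, of serine synthesis, had 0.52 in litter 1 (0.0178) and 0.08 in litter 3 (0.692).

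Pck2, the mitochondrial phosphoenolpyruvate carboxykinase and itself counted among ATF4 targets, ran opposite to Mthfd2. It had 18.7 and 20.4 CPM in the male and female of litter 3 and 8.07 to 11.3 CPM in the other 6 libraries. Its log2 fold change was 1.06 in litter 3 (SE 0.09, edgeR adjusted p = 1.42e-05) and -0.52 in litter 1 (0.00669). Both litter 3 values of Pck2 and Mthfd2 held without the female of litter 3 (1.11, adjusted p = 0.000195, and -1.31, 0.0244), while Mthfd2 had 0.0529 without the male. Without the male of litter 3, 1 of 18 rose and 2 fell in that litter. In litter 1, 0 of 18 passed without the male, and without the female Mthfd2 alone (1.36, 0.018). Over all tested genes the same steps took the litter 1 calls from 1827 to 359 and to 411, so such a loss is not particular to these genes. Phgdh (0.82 in litter 1, 0.0504) and the abundant transporters Slc38a2, Slc7a1 and Slc1a5 did not pass in either litter.

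**Figure D4:**
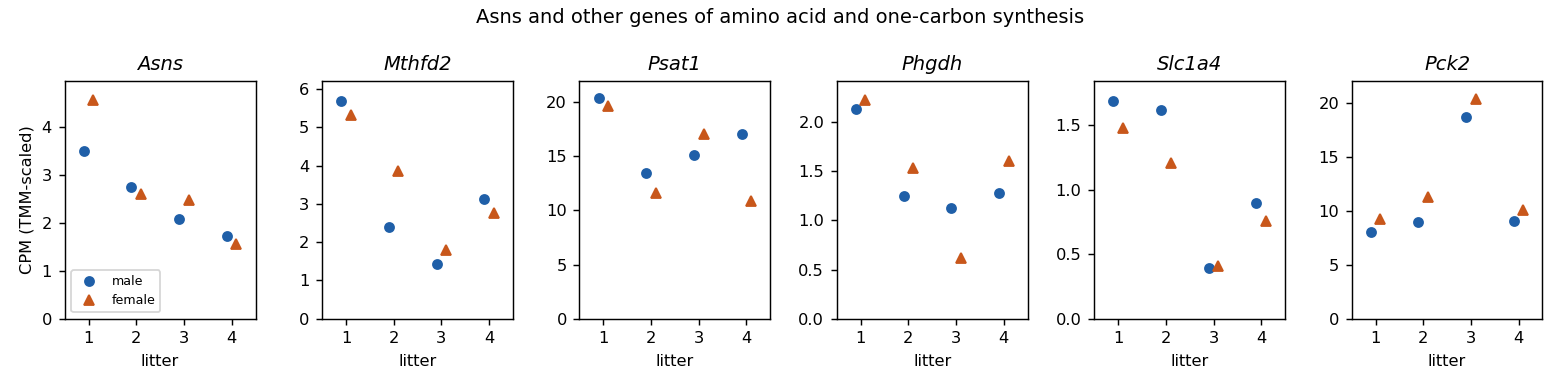
CPM of Asns and 5 other genes of amino acid and one-carbon synthesis or transport in each library by litter, circles for males and triangles for females, axes from 0; these 5 were chosen after their values were seen. Asns, Mthfd2, Psat1 and Phgdh are highest in litter 1, Mthfd2 and Slc1a4 are lowest in litter 3, and Pck2 is highest in litter 3.

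Cytosolic tRNA synthetases, many of them ATF4 targets, were lower in litter 3 for 5 of 20 genes and higher for 1, against 14.8% and 13.6% of all tested genes, with a median of -0.09. Aars had -0.51 (SE 0.09, edgeR adjusted p = 0.00119), Yars -0.30 (0.0123) and Mars -0.28 (0.0237), while Eprs, Gars and Kars did not pass. Without the female of litter 3, Mars stood at -0.14 (0.417). Of the windows of Aars, 21.7% are shared with Exosc6. In litter 1, 5 of the 20 were higher and 1 lower, against 7.86% and 5.41%, and 0 passed without its male or without its female, steps that removed most litter 1 calls over all genes too. In litter 3, 1 of 20 was lower without the female of that litter and 2 without the male.

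Further targets of ATF4 or CHOP had 6 of 20 genes higher in litter 3, against 13.6% of all tested genes, and 3 lower, close to the background of 14.8%, with a median of 0.13. Ddit4, an inhibitor of mTORC1, had 0.72 (SE 0.09, edgeR adjusted p = 0.000163), Map1lc3b, of autophagosomes, had 0.49 (7.28e-05), and Sesn1, the relative of Sesn2, had 0.46 (0.00786). Sesn1 rested on the female of litter 3, without which it stood at 0.13 (0.376). Sesn3, Bcl2l11 and Ero1l did not pass. In litter 1, 3 of the 20 were higher and 3 lower, against 7.86% and 5.41% of all tested genes. Those higher were Vldlr (0.35, 0.0185), Cdkn1a (0.34, 0.0203) and Vegfa (0.31, 0.00669), and Sqstm1 (-0.34, 0.00855) was among those lower. Ddit4 and Map1lc3b were lower in litter 1, with -0.48 (0.00748, and 0.186 with its male left out) and -0.46 (0.000412). Without the female of litter 3, 2 of 20 were higher and 2 lower, and without the male 5 and 0.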

How the data were processed

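RNA from 8 cardiomyocyte samples was sequenced as single-end reads, per the labels' protocols. The authors deposited raw read counts per gene, as whole numbers. The submitters' processing notes name STAR 2.7.3a and mm10, while the counting program, annotation and strand setting are not given in the sources used here. For the molecule, poly(A) RNA is labelled, although the kit named is one for total RNA.

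Counts were analysed with edgeR 4.0.16 in R 4.3.3: filterByExpr on sex (13771 genes kept), TMM scaling, and quasi-likelihood F tests with Benjamini-Hochberg adjustment over all tested genes and a threshold of 0.05. Sex, male minus female, was fitted without a litter term (6 residual degrees of freedom). Litters were fitted with sex as a term (3 residual degrees of freedom), in a joint test and as each litter against the mean of the other 3. Because these 4 comparisons use common libraries, they are not independent. Standard errors are |log2 fold change| over √F. Scripts were tested on simulated data. Per-length values used the union of exons in GENCODE M21 (GRCm38, the assembly mm10 names), which holds 46368 of 48440 symbols. Sequence sharing is the percent of 100-base windows of a transcript found in another gene. Promoters were RefSeq entries on GRCm38.p6, with all 10 genes matched.

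Sample numbers name litters, per the labels, and so pair each male with the female born beside it. With sex means taken out, the 2 libraries of a litter correlated across genes at 0.506, 0.503, 0.696 and 0.367 in litters 1 to 4, and other pairs at -0.482 to 0.27. Libraries of a sex differed by more than sampling noise (chi-square per degree of freedom from 9.56 to 44.9). Alternatives were DESeq2 1.42.0, its size factors, scaling by total alone, no filter or a mean of at least 50 counts, thinning to the smallest total, leaving out mitochondrial genes, the sex term, each library or each litter, and litter as a block. The gene members and lists were chosen with earlier results of these data known. Named were all 10 members, from each list up to 3 genes past the threshold with the largest change in litter 3, the litter with most calls, and up to 3 others with the highest CPM, and the 5 genes most like Asns. Other genes named were chosen after their values were seen.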

Additional observations from a re-analysis of the deposited data

Results flagged for a closer look

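Among 19 groups of 4 libraries, 1 for each gene and sex with a value above 0, 2 held a library set apart from the other 3 by the gap rule for small groups, where chance gives 0.95. Atf4 had 129 CPM in the female of litter 3, against 113 to 115 CPM in the other females. Fgf21 had 0.0411 CPM in the female of litter 1, which is 1 count, against 0 in the other females. A group with a single count and 0 elsewhere is always flagged by this rule, so the 2 flags cannot be weighed against 0.95.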

How the results depend on the processing

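Between the sexes, 0 of the 7 tested members passed under every alternative run, and the count over all genes, 6, was 29 with litter as a replicate block and 5 to 7 without single libraries. The block changed no call of a member. Of litter 2, 575 genes passed, and 1249 did with no filter, 345 with a mean of at least 50 counts and 365 without the sex term. Of litter 4, 1447 passed, and 834 without the sex term. The 4 members past the litter test were 2 with scaling by total alone and 2 without the sex term. The 1 member of litter 4 was 2 with no filter, 0 with DESeq2 and 0 with thinning. Without single libraries, 2964 to 4097 genes passed the litter test, and 359 to 1869, 153 to 752, 1704 to 3791 and 322 to 1302 passed for litters 1 to 4. Without whole litters, 1898 to 4586 passed the litter test, and 977 to 2906, 271 to 1407, 2973 to 4177 and 1068 to 1984 passed for litters 1 to 4. Members ranged without single libraries from 1 to 4 in the litter test and from 0 to 2, 0 to 1, 0 to 3 and 0 to 1 for litters 1 to 4. Without whole litters they ranged from 1 to 4 and from 2 to 2, 0 to 1, 1 to 3 and 0 to 2. Values that changed sign were all of genes not called in that comparison. The log2 fold change of Hspa5 in litter 4, 0.07, was -0.01 with scaling by total alone and ran from -0.09 to 0.21 without single libraries. Without single libraries, litter 3 values ran from -0.06 to 0.39 for Ddit3 and from -0.09 to 0.35 for Sesn2, litter 1 values of Xbp1 from -0.14 to 0.05, and male minus female from -0.36 to 0.20 for Asns, from -0.11 to 0.03 for Hspa5 and from -0.20 to 0.04 for Xbp1. Without whole litters, ranges were -0.52 to 0.11 for Asns in litter 3, 0.00 to 0.28 for Herpud1 in litter 4, -0.02 to 0.11 for Hspa5 in litter 4 and -0.19 to 0.04 for Xbp1 in litter 1. The cause of these shifts was not tested. Without 1 library of a litter, its comparison rests on 1 library assumed to vary like the rest. Depth limits Trib3, Chac1 and Fgf21, and 2 libraries a litter limit all comparisons between litters.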
